A study of Mus musculus with 4 samples.

Results

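The genes described here are 44 genes of glycolysis, of the cellular response to low oxygen and of the stanniocalcin family, read on Affymetrix 3' expression arrays in basal cells of mouse tail epidermis that expressed SmoM2 with or without Sox9. They were taken by name from the probe annotation of the arrays, and 42 of them were measured, on 95 probe sets, out of 18193 genes and 34945 probe sets with a single gene symbol. Of the 42, 41 matched by symbol, and Ero1l was matched through its current name Ero1a. Gpi1 and Eno1 were not analysed here. Of the measured genes, 27 had several probe sets, up to 5, and 15 had 1.

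There were 4 arrays. The Sox9cKO group, K14CreER:SmoM2:Sox9cKO in the labels, held 2 arrays of cells in which Sox9 was conditionally deleted beside the expression of SmoM2. The SmoM2 group, K14CreER:SmoM2, held 2 arrays of cells with intact Sox9. All mice carried K14CreER, a Cre recombinase active in basal keratinocytes after tamoxifen, and SmoM2, a constitutively active Smoothened that turns on the Hedgehog pathway, and all received 2.5 mg of tamoxifen on each of 10 days and were taken 9 weeks after the first dose. The labels do not state the age of the mice. Cells were sorted as positive for alpha 6 integrin, a basal keratinocyte surface protein, and negative for CD34, a marker of the hair follicle bulge. The labels call the arrayed cells SmoM2-positive and do not say whether cells that had lost Sox9 were selected.

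Glycolysis splits glucose to pyruvate, and pyruvate is either turned to lactate by lactate dehydrogenase or passed to the mitochondrion, where pyruvate dehydrogenase kinases hold that second route back. Hypoxia-inducible factors (HIFs) are pairs of an oxygen-sensitive alpha subunit, encoded by Hif1a or Epas1, and the partner encoded by Arnt. In the presence of oxygen, prolyl hydroxylases of the Egln family mark the alpha subunits for destruction. In low oxygen HIFs bind short DNA motifs and raise genes of glucose uptake, glycolysis, blood vessel growth and cell survival. The epidermis is a poorly vascularised tissue and keratinocytes are known for strong lactate production. Stanniocalcins are secreted glycoprotein hormones first known from calcium control in fish.

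Basal keratinocyte markers were bright on every array. Of 8, 5 (Krt14, Itga6, Itgb4, Col17a1 and Itgb1) were lower on both Sox9cKO arrays than on both SmoM2 arrays (62.5%, against 21.8% of all genes). None passed by limma, 4 had an unadjusted p under 0.05, and the median log2 change of the list was -0.43. Over all genes, 3234 of 18193 had an unadjusted limma p under 0.05, which is the background for such counts below. Krt14 read 13.15 and 13.30 in Sox9cKO arrays, against 13.51 and 13.76 in SmoM2 arrays. Krt5 read 13.20 and 13.40 on the log2 scale in Sox9cKO arrays, against 13.20 and 13.41 in SmoM2 arrays, and Cd34 lay at 3.95 and 3.75 against 4.14 and 4.15, below the lower quartile of all probe sets on each array (4.25 to 4.29). Sox9 read 6.75 and 5.70 in Sox9cKO arrays, against 10.21 and 10.02 in SmoM2 arrays, at 1 of its 3 probe sets (log2 change -3.89, limma adjusted p = 0.00159 over probe sets). At the others it read 8.06 and 8.48 against 8.77 and 9.27 (adjusted p = 0.143), and 4.06 and 3.86 against 4.22 and 4.52 (adjusted p = 0.298). Median signals lay between 5.45 and 5.48 on the 4 arrays. Y-linked genes (Eif2s3y, Kdm5d and Uty) read 6.74 to 9.48 in Sox9cKO replicate 1 and SmoM2 replicate 2 and 3.23 to 3.62 in the other arrays, so the replicates of a group were not repeats of 1 sample. How many animals went into a sample is not stated, and a p-value here reflects only sample-to-sample spread.

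The promoters of several of these genes carry the core of the HIF binding motif, ACGTG or GCGTG. RefSeq windows of the 250 bases before a listed transcription start (GRCm38.p6) were at hand for 36 of the 42 measured genes, in 47 windows. The motif was searched on both strands, and matches that overlap, as in CACGTG, were counted on each strand. Of these 47 windows, 39 (83%) held at least 1 match, against 38.6% of 32851 windows of all genes. ACGTG alone was in 53.2% of the windows, against 16.6% of all, and GCGTG in 59.6%, against 28.2%. Many of these genes are textbook HIF targets, and a match in a window shows the letters and no binding. Both motifs hold the letters CG, and the windows of all genes were not matched for base composition. The part of base composition in these shares was not tested. The 4 windows printed here belong to the hexokinases Hk2 and Hk1, both lower in Sox9cKO arrays, to Bnip3, higher on both Sox9cKO arrays but just short of the threshold, and to Ldha, whose arrays differed little. They are given 5′ to 3′ with the motif letters in capitals.
Hk2 (chr6:82774455-82774704, minus strand): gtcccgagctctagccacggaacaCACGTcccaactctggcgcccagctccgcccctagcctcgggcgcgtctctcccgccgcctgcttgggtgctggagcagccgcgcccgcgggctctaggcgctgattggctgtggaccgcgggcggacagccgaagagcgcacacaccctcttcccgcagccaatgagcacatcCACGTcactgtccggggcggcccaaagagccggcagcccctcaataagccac
Hk1 (chr10:62340422-62340671, minus strand): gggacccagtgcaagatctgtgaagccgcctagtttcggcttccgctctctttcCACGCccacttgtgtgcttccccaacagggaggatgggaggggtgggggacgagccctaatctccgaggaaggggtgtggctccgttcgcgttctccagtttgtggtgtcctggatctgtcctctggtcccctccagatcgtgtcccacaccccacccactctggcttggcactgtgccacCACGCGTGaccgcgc
Bnip3 (chr7:138909507-138909756, minus strand): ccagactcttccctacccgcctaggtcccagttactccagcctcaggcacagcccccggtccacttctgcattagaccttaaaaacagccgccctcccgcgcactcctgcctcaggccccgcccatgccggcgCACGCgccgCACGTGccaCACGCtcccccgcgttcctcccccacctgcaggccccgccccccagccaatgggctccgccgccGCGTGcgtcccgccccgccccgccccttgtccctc
Ldha (chr7:46845554-46845803, plus strand): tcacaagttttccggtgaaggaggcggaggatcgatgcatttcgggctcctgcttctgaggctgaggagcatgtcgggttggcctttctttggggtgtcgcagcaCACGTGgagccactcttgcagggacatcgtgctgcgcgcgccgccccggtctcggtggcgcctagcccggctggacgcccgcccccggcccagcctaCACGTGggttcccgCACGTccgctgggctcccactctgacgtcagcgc
The Hk2 window held 2 matches, both ACGTG, and the Hk1 window held 3, all GCGTG, while the window at another listed Hk1 start held 0. Bnip3 had 5 matches, 2 of ACGTG and 3 of GCGTG, and Ldha had 5, all ACGTG, while the window at another listed Ldha start held 1, a GCGTG. The printed windows with several matches thus stood before genes that were lower, higher without being called, and nearly level in Sox9cKO arrays. No window was at hand for Stc1, Epas1 and Ndrg1, so the promoters of the genes called higher were not read.

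Loss of Sox9 went with a change of few genes of this set. Stc1, which encodes stanniocalcin-1, Epas1, which encodes HIF-2 alpha, and Ndrg1 rose, while the hexokinase genes Hk1 and Hk2 fell. These 5 genes, 11.9% of the 42, passed a limma test with adjusted p under 0.05 over all genes, against 6.19% of all 18193 genes (2.66% higher and 3.53% lower). Counted by probe set and adjusted over all probe sets, 3 rose and 1 fell of 95, which is 4.21%, the same share as the 4.21% of all probe sets (1.69% higher and 2.51% lower). The 3 genes that rose belong to the 21 of the hypoxia response and stanniocalcins, and the 2 that fell belong to the 21 of glucose uptake, glycolysis and pyruvate or lactate handling. The arrays of the genotypes did not overlap for 23 of the 42 genes (54.8%), 13 higher and 10 lower in Sox9cKO, against 47.9% of all genes (26% higher and 21.8% lower). By probe set it was 44 of 95 (46.3%), 28 higher and 16 lower, against 45.5% of all probe sets (23.7% higher and 21.8% lower). A gap of at least 1.5-fold without overlap was found at 7 of the 42 genes (16.7%), against 9.43% of all genes, and at 9 of the 95 probe sets (9.47%), against 8.56% of all. The shares by probe set lay near the background, while those of genes called and of genes 1.5-fold apart lay above it, and no test of that difference was made. The median log2 change was 0.02 for the 42 genes and 0.02 for all genes. As the arrays had nearly equal quartiles when deposited, a shift shared by most genes would not be seen. The smallest p that an exact permutation test can reach with 2 arrays against 2 is 0.333, and the limma calls borrow their error estimate from all genes. In RNA of sorted cells, fewer cells of a type and less RNA per cell cannot be told apart.

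**Figure D1:**
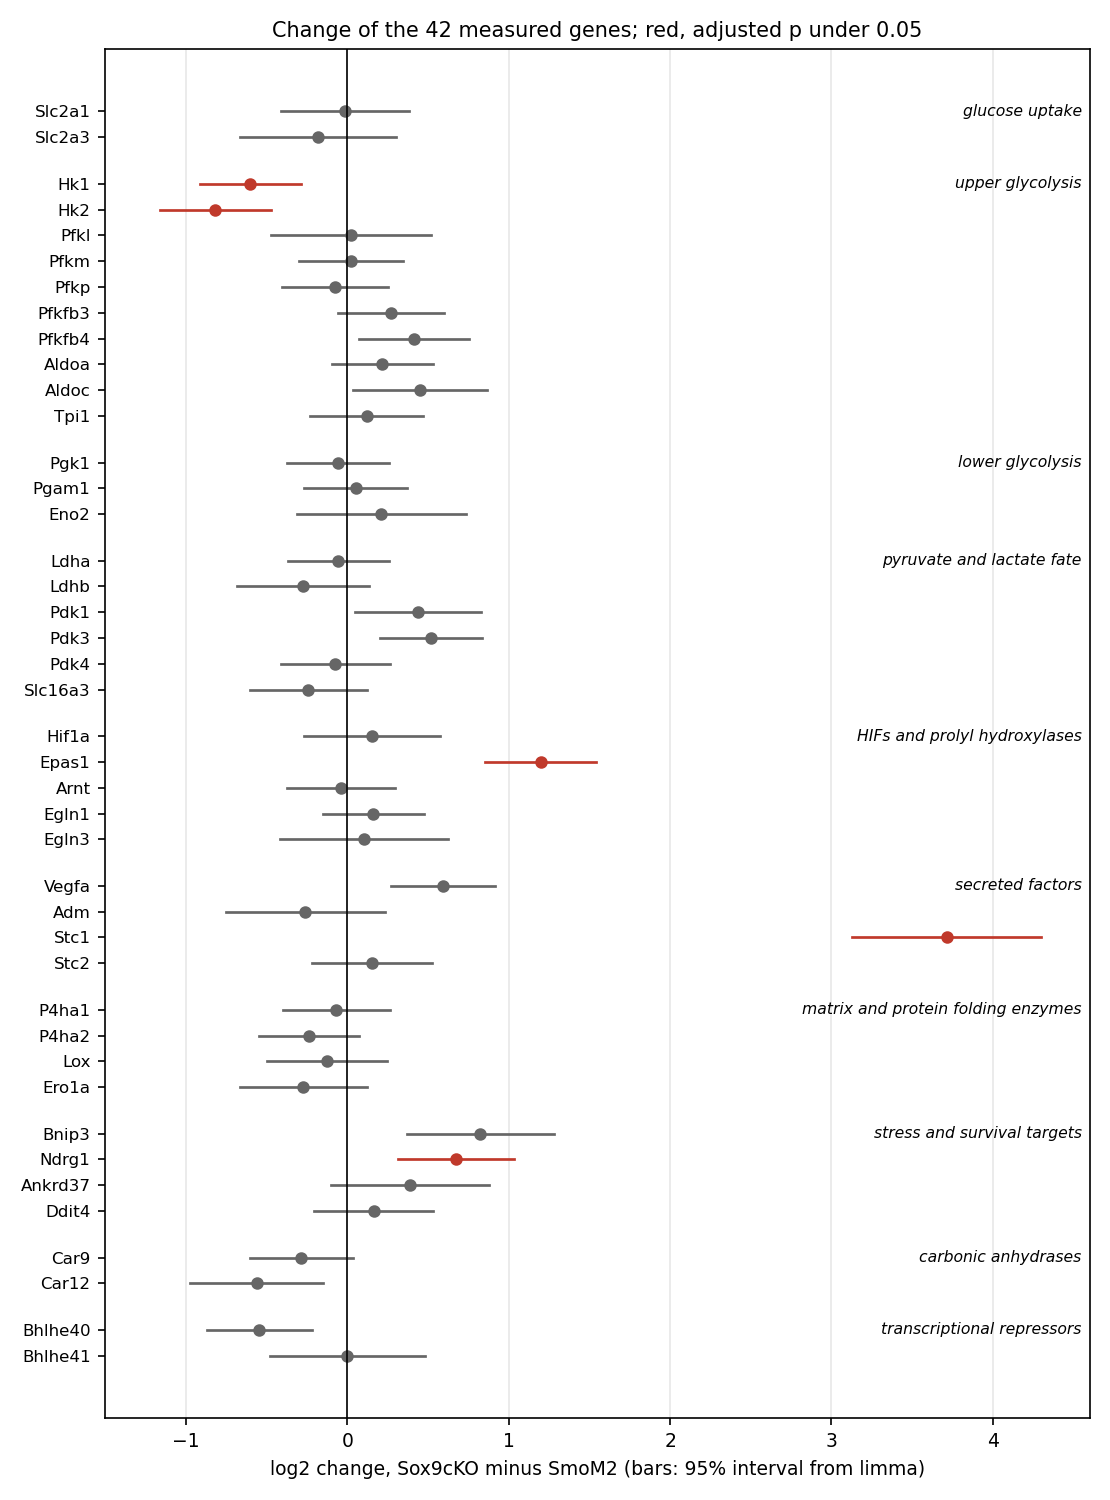
Log2 change of each of the 42 measured genes (Sox9cKO minus SmoM2), grouped by role, with points for the limma estimate and bars for its 95% interval; red marks adjusted p under 0.05. Stc1 stands far to the right at 3.71, Epas1 lies at 1.20, Hk1 and Hk2 lie at -0.60 and -0.82, and most other intervals include 0.

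Both hexokinase genes of the set were lower without Sox9. Hexokinases phosphorylate glucose and so keep it in the cell; Hk1 is the widely expressed form and Hk2 the inducible form of growing and tumour cells. Hk2 read 9.83 and 9.89 in Sox9cKO arrays, against 10.55 and 10.80 in SmoM2 arrays, and fell by 0.82 (SE 0.15, 1.76-fold, limma adjusted p = 0.02). Both Sox9cKO arrays lay close together and below both SmoM2 arrays. Hk1 read 8.28 and 8.32 in Sox9cKO arrays, against 8.95 and 8.84 in SmoM2 arrays, and fell by 0.60 (SE 0.13, 1.52-fold, limma adjusted p = 0.0461). Its second probe set was dimmer, at 5.35 and 5.14 against 5.73 and 5.61, also with no overlap and a log2 change of -0.43. Leaving out any 1 of the 4 arrays ended both calls, with limma adjusted p of 0.0517 to 0.12 and changes of -0.94 to -0.70 for Hk2, and adjusted p of 0.135 to 0.205 and changes of -0.65 to -0.55 for Hk1. Hk1 also missed the threshold with quantile normalization (adjusted p = 0.0511) and with the mean of its probe sets (adjusted p = 0.0622).

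The other measured genes of uptake and glycolysis did not pass. The glucose transporter Slc2a1 read 12.37 and 11.96 in Sox9cKO arrays, against 12.18 and 12.18 in SmoM2 arrays, so that the Sox9cKO arrays lay on both sides (log2 change -0.01, 95% interval -0.41 to 0.38). The neuronal-type transporter Slc2a3 overlapped as well, with a change of -0.18. The phosphofructokinase subunits Pfkl, Pfkm and Pfkp, the committed step of the pathway, changed by 0.02, 0.02 and -0.08, and the widest of their 95% intervals ran from -0.47 to 0.52. Pfkfb3 and Pfkfb4 make the activator of phosphofructokinase. Both were higher on each Sox9cKO array than on each SmoM2 array, Pfkfb4 at 7.26 and 7.27 against 6.97 and 6.73 (log2 change 0.41, adjusted p = 0.186) and Pfkfb3 with a change of 0.27 (adjusted p = 0.385). Aldoc, the brain-type aldolase, read 9.13 and 9.46 in Sox9cKO arrays, against 9.00 and 8.69 in SmoM2 arrays (log2 change 0.45, adjusted p = 0.236), while Aldoa, the general form, changed by 0.22. Changes were also small at other steps, at 0.12 for triose phosphate isomerase Tpi1, -0.06 for phosphoglycerate kinase Pgk1 and 0.05 for phosphoglycerate mutase Pgam1, with 95% intervals inside -0.37 to 0.47. The neuronal enolase Eno2 was dim, at 4.20 and 4.88 against 4.34 and 4.31. Of the 13 glycolysis enzymes, 0 rose and 2 fell by limma, and 4 had an unadjusted p under 0.05, of which Pfkfb4 and Aldoc were higher in Sox9cKO arrays.

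At the fate of pyruvate, 0 of 6 genes passed in limma's gene fit, and 2 had an unadjusted p under 0.05. The arrays of 5 (83.3%) did not overlap, against 47.9% of all genes. For Ldha, Ldhb and Slc16a3 the nearest arrays of the groups were almost level. They read 12.729 in Sox9cKO against 12.73 in SmoM2, 9.52 against 9.54, and 5.30 against 5.36. Ldha, the main lactate dehydrogenase subunit, read 12.73 and 12.65 in Sox9cKO arrays, against 12.73 and 12.76 in SmoM2 arrays, a difference of -0.06 with a 95% interval of -0.37 to 0.26. Ldhb, the subunit of oxidative tissues, lay at 9.46 and 9.52 against 9.98 and 9.54, and all 4 of its probe sets were lower on both Sox9cKO arrays, by 0.27 to 0.47 on the log2 scale, without passing. Most of that gap came from SmoM2 replicate 1, and without it the change was -0.06. The kinases Pdk1 and Pdk3, which hold pyruvate dehydrogenase inactive, were higher on both Sox9cKO arrays. Pdk3 read 8.70 and 8.57 in Sox9cKO arrays, against 8.14 and 8.09 in SmoM2 arrays (log2 change 0.52, adjusted p = 0.0773). Pdk1 read 9.79 and 10.11 in Sox9cKO arrays, against 9.40 and 9.63 in SmoM2 arrays (log2 change 0.44, adjusted p = 0.219). A further Pdk1 probe set read 9.09 and 9.56 against 8.24 and 8.46 and passed in the probe set fit (log2 change 0.98, SE 0.19, limma adjusted p = 0.0412), but the other Pdk1 probe sets lay at -0.05 and -0.37 with overlapping arrays. Without Sox9cKO replicate 2, SmoM2 replicate 1 or SmoM2 replicate 2 its adjusted p was 0.13, 0.162 and 0.0869. Pdk4 was below the lower quartile of all probe sets on every array, at 3.59 and 3.82 against 3.80 and 3.75. Slc16a3, a lactate exporter raised by HIF in many cells, lay near the array median, at 5.24 and 5.30 against 5.66 and 5.36.

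Among the HIF subunits and their hydroxylases, Epas1 rose and the rest did not pass. Epas1 read 9.15 and 9.27 in Sox9cKO arrays, against 8.13 and 7.90 in SmoM2 arrays, a log2 increase of 1.20 (SE 0.15, 2.3-fold, limma adjusted p = 0.00399). The groups were more than a log2 unit apart, and the call held in each fit with an array left out (adjusted p of 0.0108 to 0.0377, changes of 1.09 to 1.31). Its second probe set was dim, at 5.43 and 5.21 against 4.90 and 5.16, with a change of 0.29, and the mean of both gave 0.75 (adjusted p = 0.0152). Hif1a read 12.18 and 11.99 in Sox9cKO arrays, against 11.72 and 12.14 in SmoM2 arrays, a change of 0.15 with overlapping arrays. None of its 4 probe sets passed. Arnt changed by -0.04, with a 95% interval of -0.37 to 0.29. The hydroxylase gene Egln1 lay slightly higher on both Sox9cKO arrays, at 10.20 and 10.13 against 10.04 and 9.97, and Egln3, itself a HIF target, overlapped at 10.31 and 10.73 against 10.69 and 10.15.

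Endothelial cells are known for high Epas1, so endothelial markers were read beside it. They averaged 4.73 and 4.82 in Sox9cKO arrays, against 4.69 and 4.79 in SmoM2 arrays, and 0 of 7 passed by limma (1 with an unadjusted p under 0.05). Cdh5 and Tek read at most 4.22 in Sox9cKO arrays and 4.17 in SmoM2 arrays. Both lay below the lower quartile of all probe sets on every array, as did Emcn. Tie1 did so on all arrays but SmoM2 replicate 2, and was lower on both Sox9cKO arrays. Pecam1 lay between the lower quartile and the median on every array, and Kdr lay above the median on every array. The genotypes overlapped for Pecam1 and Kdr. Egfl7, the brightest of the list, was higher on both Sox9cKO arrays. It averaged 7.48 in Sox9cKO arrays and 6.89 in SmoM2 arrays (limma adjusted p = 0.0983). Of 7 inner root sheath and hair cortex markers, of inner layers of the hair follicle, 4 rose (Krt25, Krt71, Tchh and Gata3). Krt27 was higher on both Sox9cKO arrays without passing. Krt31 and Krt35 were dim and overlapped, with log2 changes of -0.07 and 0.08. The list averaged 7.10 and 6.82 in Sox9cKO arrays, against 5.88 and 5.68 in SmoM2 arrays. Of 8 suprabasal keratinocyte markers 2 rose, Lor and Flg, with log2 changes of 1.56 and 1.82. Krt10 was higher on both Sox9cKO arrays without passing, Krtdap and Sbsn were lower on both, and Krt1, Ivl and Calm4 overlapped. The 8 averaged 10.84 and 11.18, against 10.59 and 10.31. Bulge markers averaged 8.42 and 8.32 in Sox9cKO arrays, against 9.01 and 9.16 in SmoM2 arrays, with 1 of 7 higher and 3 lower. Foxc1 fell most, by 3.66, while Nfatc1 and Tcf7l1 fell by 1.04 and 1.12 and Lhx2 rose by 0.79. Without passing, Lgr5 was higher and Cd34 lower on both Sox9cKO arrays, and Postn overlapped. Basal markers averaged 11.34 and 11.39 against 11.54 and 11.91. Over all genes, 2.66% were called higher and 3.53% lower, beside these marker shifts. The part of these shifts in the changes of Epas1, Stc1, Ndrg1, Hk1 and Hk2 was not tested.

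Stc1 showed the largest change of the 42 genes. It read 9.65 and 8.96 in Sox9cKO arrays, against 5.81 and 5.38 in SmoM2 arrays. The SmoM2 values lay near the median of all probe sets and the Sox9cKO values well above it, with a gap of more than 3 log2 units between the nearest arrays. The log2 increase was 3.71 (SE 0.25, 13.1-fold, limma adjusted p = 0.000464), and it lay between 3.37 and 4.05 with an array left out. The second Stc1 probe set was below the lower quartile on every array, at 3.54 and 3.35 against 3.59 and 3.44, and averaging both gave 1.82 (adjusted p = 0.00409). Stc2, the other stanniocalcin and a target of the unfolded protein response, did not follow. It read 5.98 and 5.66 in Sox9cKO arrays, against 5.71 and 5.61 in SmoM2 arrays, a change of 0.16 with a 95% interval of -0.22 to 0.53, and 0 of its 3 probe sets passed by limma.

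Of the other secreted factors, Vegfa, the main growth factor of blood vessels, missed the threshold narrowly. It read 8.04 and 8.18 in Sox9cKO arrays, against 7.49 and 7.55 in SmoM2 arrays, with a log2 change of 0.59 (SE 0.14, 1.51-fold, limma adjusted p = 0.0502). The arrays did not overlap, and the second Vegfa probe set gave 0.23 with overlap. Adm, the vasodilator peptide adrenomedullin and a sensitive HIF target in many cells, overlapped at 5.89 and 6.45 against 6.29 and 6.56 (log2 change -0.26, adjusted p = 0.617). Its direction rested on 1 array, with a change of 0.02 without Sox9cKO replicate 1 and -0.54 without Sox9cKO replicate 2.

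**Figure D2:**
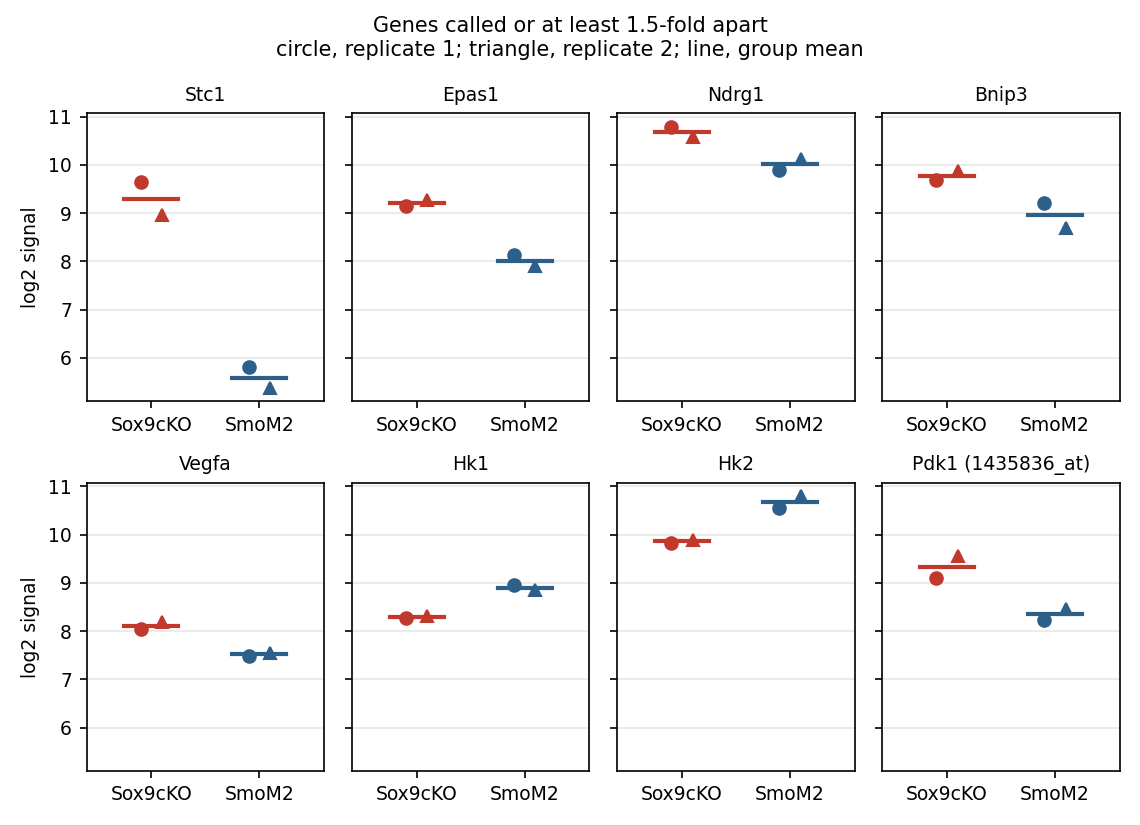
Log2 signal on each array (Sox9cKO left, SmoM2 right) for 7 genes called or at least 1.5-fold apart without overlap and for the Pdk1 probe set called in the probe set fit; circles are replicate 1, triangles replicate 2 and lines group means. The Sox9cKO arrays lie above the SmoM2 arrays for Stc1, Epas1, Ndrg1, Bnip3, Vegfa and Pdk1, and below them for Hk1 and Hk2.

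The stress and survival targets all had positive changes, and 1 of 4 passed. Over all 18193 genes, 9772 had positive changes and 2.66% were called higher. Ndrg1, an early marker of hypoxia and of epithelial differentiation, read 10.78 and 10.59 in Sox9cKO arrays, against 9.90 and 10.13 in SmoM2 arrays, and rose by 0.67 (SE 0.15, 1.59-fold, limma adjusted p = 0.0496). All 5 of its probe sets were positive, from 0.17 to 0.67, and 4 had no overlap, but none passed in the probe set fit. The call lay at the edge of the threshold: leaving out any array gave adjusted p of 0.08 to 0.236, the mean of the probe sets gave 0.44 (adjusted p = 0.168), leaving out probe sets of suffix _x_at or _s_at, which can bind related transcripts, gave 0.60 (adjusted p = 0.0704), and quantile normalization gave adjusted p = 0.0502. Bnip3, which drives removal of mitochondria in low oxygen, read 9.69 and 9.87 in Sox9cKO arrays, against 9.21 and 8.70 in SmoM2 arrays (log2 change 0.82, SE 0.19, 1.77-fold, limma adjusted p = 0.0545). The difference was as large as that of Hk2, but the SmoM2 arrays lay further apart. Ankrd37, a HIF target in many cells, was also higher on both Sox9cKO arrays, at 7.43 and 7.59 against 7.42 and 6.83, by 0.39 (adjusted p = 0.403), or 0.09 without SmoM2 replicate 2. Ddit4, an inhibitor of mTORC1 induced by several stresses, changed by 0.16.

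In the remaining groups 7 of 8 genes had negative changes, against 8416 of all 18193 genes. By limma 0 passed, and 2 had an unadjusted p under 0.05, against 3234 of all genes. Prolyl 4-hydroxylases, lysyl oxidase and Ero1a serve collagen hydroxylation, collagen cross-linking and disulfide formation; P4ha1, P4ha2, Lox and Ero1a changed by -0.07, -0.24, -0.13 and -0.27, and 0 of 4 had even an unadjusted limma p under 0.05. Lox was dim, at 4.37 and 4.35 against 4.66 and 4.31. The membrane carbonic anhydrases, which acidify the outside of hypoxic cells, were both lower on each Sox9cKO array at the probe sets that stand for the genes. Car12 read 9.90 and 10.34 in Sox9cKO arrays, against 10.67 and 10.70 in SmoM2 arrays (log2 change -0.56, adjusted p = 0.134). Its dimmer probe sets overlapped, with changes of 0.20 and 0.18, and the mean of all its probe sets gave -0.06. Car9, a highly HIF-dependent gene, was dim at 4.93 and 4.90 against 5.27 and 5.13. The helix-loop-helix repressor Bhlhe40 read 10.14 and 9.96 in Sox9cKO arrays, against 10.61 and 10.58 in SmoM2 arrays (log2 change -0.55, adjusted p = 0.0722). Its relative Bhlhe41 overlapped near the array median with a change of 0.00, and its second probe set gave 0.51.

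Where a gene had several probe sets they often differed in level and sometimes in sign. The 4 Ldhb, 5 Ndrg1, 3 Ero1a and 3 Tpi1 probe sets each had a single sign. Aldoa had 5 probe sets, all of suffix _x_at, with changes between -0.09 and 0.24, and those of Arnt, also 5, ran from -0.17 to 0.16. The 4 of Pdk1 spread most after the pair of Stc1. None of the 42 genes had several probe sets called, so the directions of called probe sets could not be compared within a gene.

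**Figure D3:**
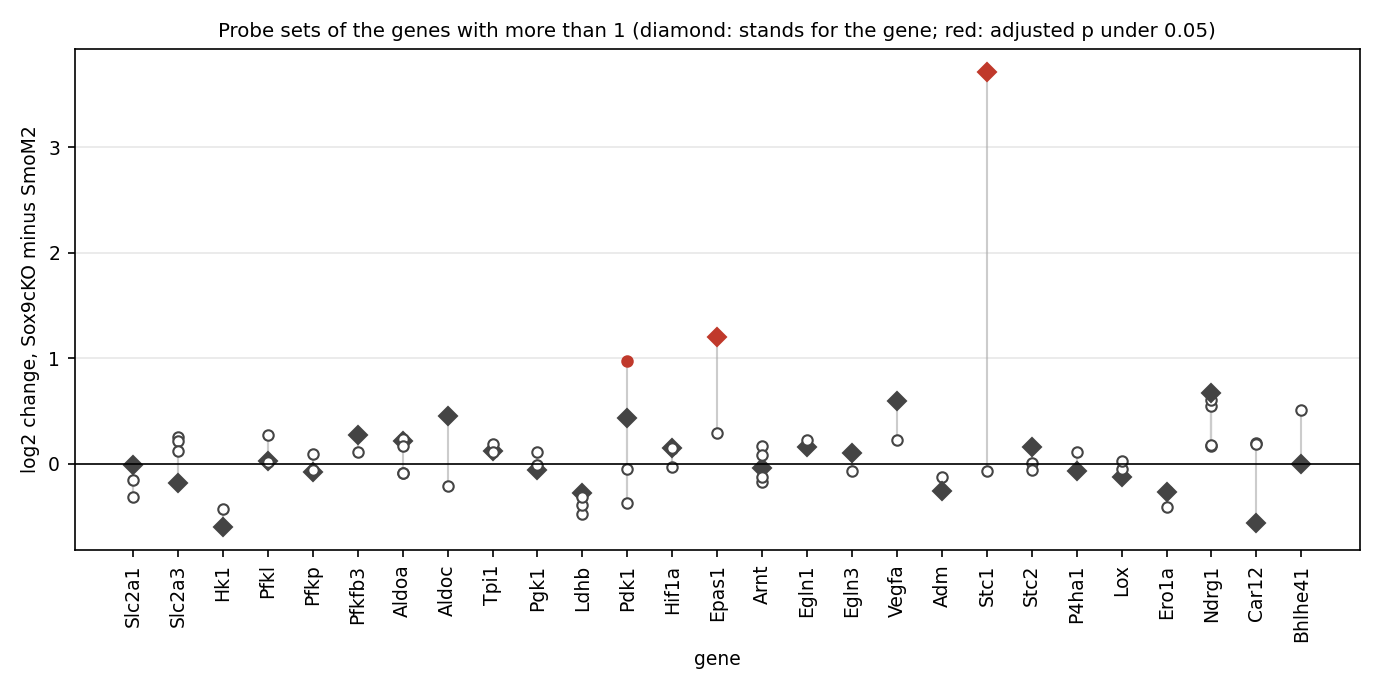
Log2 change (Sox9cKO minus SmoM2) of every probe set of the 27 genes with several; the diamond is the probe set of highest mean, which stands for the gene, and red marks adjusted p under 0.05 over all probe sets, by which Stc1, Epas1 and 1 Pdk1 probe set were called. The Stc1 pair spans -0.07 to 3.71 and the Ldhb probe sets all lie below 0.

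Genes of the same pathways outside the set were read from separate lists of 99 measured genes. Of these 5 rose and 10 fell, 15.2% against 6.19% of all genes, with a median log2 change of -0.05. The lists were chosen with earlier results of these data known. Their shares, here and in the next paragraphs, were not tested against those of all genes. Of 13 pyruvate and lactate genes 1 rose and 1 fell, both monocarboxylate transporters, which carry lactate and pyruvate across the cell membrane. Slc16a1 read 8.97 and 8.90 in Sox9cKO arrays, against 10.81 and 11.17 in SmoM2 arrays, and fell by 2.06 (SE 0.16, 4.16-fold, limma adjusted p = 0.000795). Slc16a7, the high-affinity form, read 8.66 and 8.16 in Sox9cKO arrays, against 6.31 and 5.73 in SmoM2 arrays, and rose by 2.39 (SE 0.24, 5.23-fold, limma adjusted p = 0.00203). Both were called in each of the 11 other fits, with changes of -2.23 to -1.45 for Slc16a1 and 2.10 to 2.68 for Slc16a7.

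Some genes of glycogen metabolism fell, as did Fbp2 of gluconeogenesis. Of 16 measured genes of glycogen, gluconeogenesis and the pentose phosphate route, 0 rose and 4 (25%) fell by limma, against 3.53% of all genes called lower. An unadjusted limma p under 0.05 was found for 7, against 3234 of all 18193 genes. The arrays of 10 (62.5%) lay wholly lower in Sox9cKO, against 21.8% of all genes. The genes of glycogen synthesis and branching Gys1, Ugp2 and Gbe1 were also lower on both Sox9cKO arrays but did not pass (limma adjusted p = 0.664, 0.881 and 0.213). The glycogen phosphorylases Pygl and Pygb fell by 1.29 (6.32 and 6.04 in Sox9cKO arrays, against 7.62 and 7.33 in SmoM2 arrays, adjusted p = 0.00513) and by 0.79 (9.05 and 9.18 against 9.91 and 9.90, adjusted p = 0.0162). Ppp1r3c, which targets a phosphatase to glycogen, fell by 1.59 (4.25 and 4.44 against 5.78 and 6.10, adjusted p = 0.00207), and by 0.86 with the mean of its probe sets. Fbp2, the muscle-type fructose bisphosphatase, fell by 1.61 (5.28 and 5.24 against 7.04 and 6.70, adjusted p = 0.00185). The gluconeogenesis genes Fbp1, Pck1 and Pck2 overlapped, with log2 changes of -0.13, -0.22 and 0.20. Pgd of the pentose phosphate route was lower on both Sox9cKO arrays without passing (log2 change -0.70, limma adjusted p = 0.0707). Pygb missed the threshold without Sox9cKO replicate 1, SmoM2 replicate 1 or SmoM2 replicate 2, with adjusted p up to 0.0936. Among other glycolysis genes 1 of 16 passed: Slc2a9, a urate and hexose transporter, fell by 2.25 (6.20 and 5.25 in Sox9cKO arrays, against 8.12 and 7.83 in SmoM2 arrays, adjusted p = 0.00531 in the fit of all arrays and 0.055 when SmoM2 replicate 1 was dropped). The pyruvate kinase Pkm changed by -0.21 (adjusted p = 0.492). Gapdh and Bnip3l were not analysed here.

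Of 13 HIF regulators only Cited2, which competes with HIFs for the coactivator p300, passed. It read 8.03 and 7.47 in Sox9cKO arrays, against 8.97 and 8.92 in SmoM2 arrays, and fell by 1.19 (SE 0.20, limma adjusted p = 0.0145, but 0.0977 and 0.0927 without SmoM2 replicate 1 or 2). Vhl, Egln2 and Hif3a changed by 0.03, -0.09 and 0.26. The 41 other HIF targets went both ways, with 4 higher and 3 lower (17.1% called, against 6.19% of all genes). Cp, the ferroxidase ceruloplasmin, read 4.51 and 4.58 in Sox9cKO arrays, against 7.70 and 7.93 in SmoM2 arrays, and fell by 3.27 (9.62-fold, limma adjusted p = 0.000135), or by 2.00 with the mean of its probe sets. Plin2, a lipid droplet gene, read 9.00 and 8.92 in Sox9cKO arrays, against 10.35 and 9.94 in SmoM2 arrays, and fell by 1.18 (adjusted p = 0.00813). It is also 1 of the 5 sebocyte markers read here. Of the others, Cidea fell (log2 change -2.29, limma adjusted p = 0.00174). Scd1 was higher on both Sox9cKO arrays (log2 change 0.28) without passing, and Mc5r and Fasn overlapped. The part of sebocytes in the fall of Plin2 was not tested. Pdgfb, a growth factor for pericytes, read 6.62 and 6.78 in Sox9cKO arrays, against 7.43 and 7.80 in SmoM2 arrays, and fell by 0.92 (adjusted p = 0.022). That p was 0.12 on dropping SmoM2 replicate 2, 0.0839 on dropping Sox9cKO replicate 1 and 0.105 with its probe sets averaged. Gadd45b, a stress response gene, read 8.85 and 9.15 in Sox9cKO arrays, against 7.94 and 8.04 in SmoM2 arrays, and rose by 1.01 (adjusted p = 0.0111, and 0.0818 and 0.0649 with SmoM2 replicate 1 or 2 dropped). Fam162a, Ccng2 and Ccn2 rose by 0.71, 0.68 and 0.61, and each of these calls was lost when any array was left out, with adjusted p of 0.0787 to 0.189. These 3 were named after their values were seen. Plod2, a collagen lysyl hydroxylase, read 8.81 and 7.45 in Sox9cKO arrays, against 6.75 and 6.52 in SmoM2 arrays. Its change of 1.49 (adjusted p = 0.0764) was 2.17 without Sox9cKO replicate 2 and 0.81 without Sox9cKO replicate 1.

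**Figure D4:**
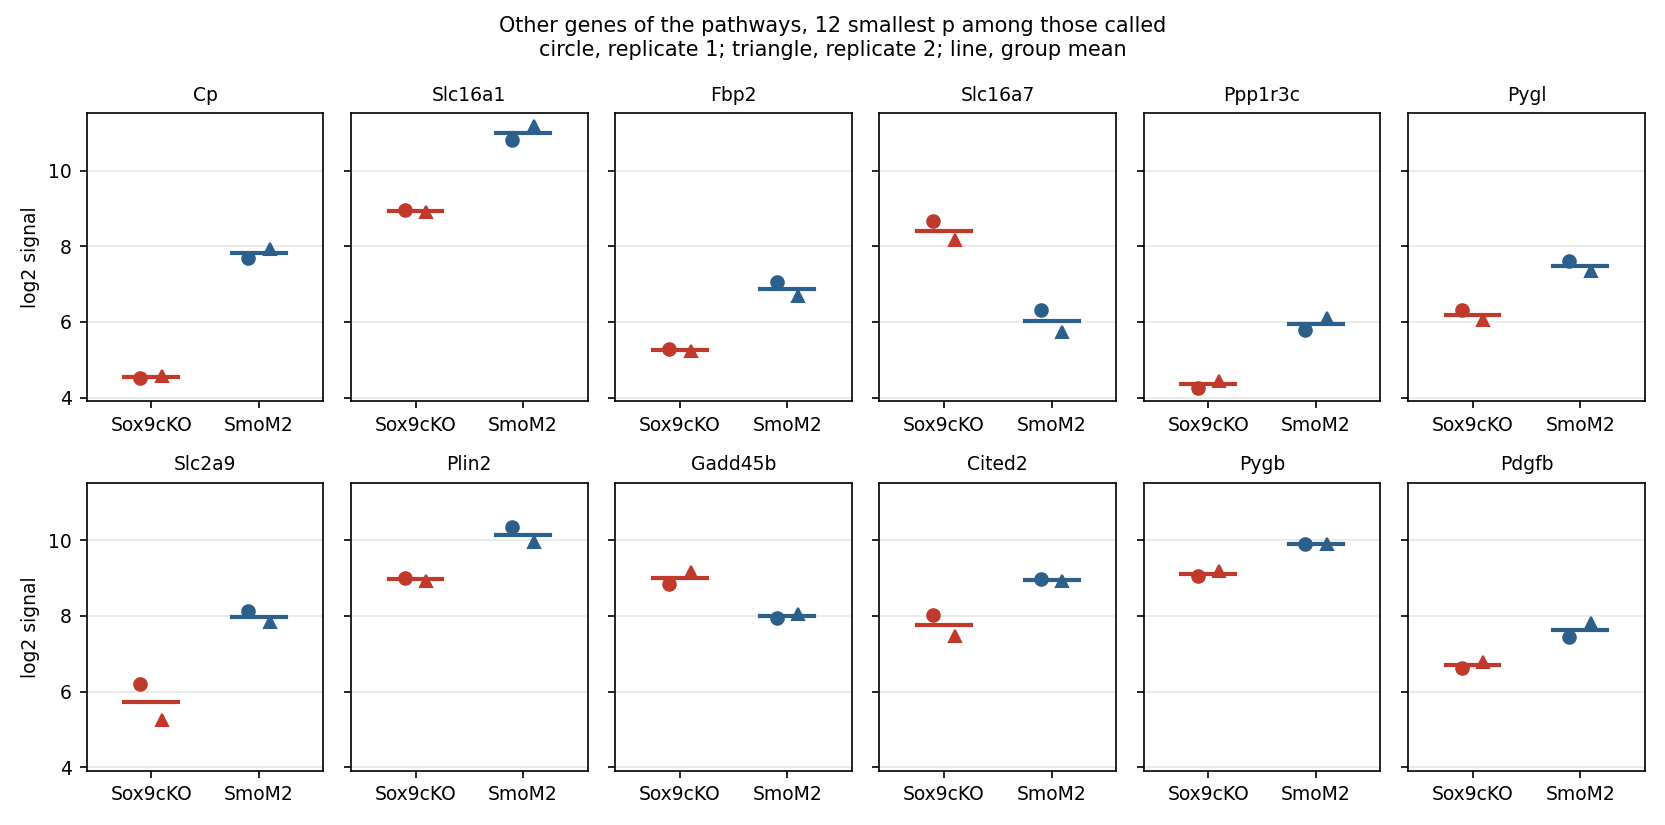
Log2 signal on each array (Sox9cKO left, SmoM2 right) for the 12 genes of smallest p among the other pathway genes called; circles are replicate 1, triangles replicate 2 and lines group means. Slc16a7 and Gadd45b are higher in Sox9cKO arrays and the other genes shown are lower.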

How the data were processed

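Total RNA (100 ng per sample) was amplified and labelled with biotin, per the labels' protocols. The deposited table holds log2 values for every array and probe set. The scale was read from their range, and the sources used here do not give the authors' normalization; the submitters' processing notes name R 2.14.0. Arrays give no read depth, so their number limits the precision.

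Of 45101 probe sets, only the 34945 that had a single symbol and were not among 64 controls were kept. Symbols were updated through the entrez ID. A gene was read at its probe set of highest mean over the 4 arrays. Sox9cKO was compared with SmoM2 in R 4.3.3 with limma 3.58.1 (default prior, no covariate, two-sided, 7.17 degrees of freedom, Benjamini-Hochberg over all genes), and likewise over all probe sets. The fit was tested on simulated data. The alternatives were a replicate block, an intensity trend with robust prior, other probe set rules, 2 scalings, a filter on dim genes and each array left out. The genes and lists were chosen with earlier results of these data known. Values in every array are given for genes called, or at least 1.5-fold apart without overlap, and up to 12 called genes of the other pathway lists.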

Additional observations from a re-analysis of the deposited data

How the results depend on the processing

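Of 42 genes, Stc1 and Epas1 passed in all 11 alternative fits. The count of genes higher, 3 as reported, was 6 with the replicate block, 5 with dim genes left out (fewer genes tested) and 2 to 3 with an array left out. The count lower, 2 as reported, was 4 with the block, 1 with probe sets averaged per gene, 1 with quantile normalization and 0 with each array left out (fewer samples). For probe sets, the block gave 7 higher and 2 lower, the intensity trend with robust prior gave 5 higher, and leaving out an array gave 2 to 3 higher and 0 lower. Leaving out an array gave 1 to 3 other pathway genes higher and 7 to 10 lower. A group left with 1 array was given the spread of the other. Where no construction is named, the cause was not tested. No called gene changed sign, while 18 of the 42 genes, none of them called, did so in at least 1 alternative. The block also moved the calls over all genes to 1919 from 1126, and added Vegfa, Bnip3, Pdk3, Bhlhe40 and Car12. Deviations of same-numbered arrays correlated at 0.0923, and the labels do not say that the numbers pair the samples. The block joined arrays that differed in Y-linked signal, which was high in Sox9cKO replicate 1 and SmoM2 replicate 2. Signals below the array median limit what can be seen of Pdk4, Lox, Eno2 and Car9.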
